A study of Mus musculus with 10 samples.

Results

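The unfolded protein response and the integrated stress response were followed through 10 genes (*Hspa5*, *Xbp1*, *Atf4*, *Ddit3*, *Trib3*, *Chac1*, *Asns*, *Psat1*, *Phgdh* and *Sesn2*), taken by their symbols as effectors and targets of endoplasmic reticulum (ER) stress and of Atf4. All 10 were found among the 25232 genes of the authors' deposited table. The table came from RNA-seq of the spinal cord of 90-day-old female mice of strain C57BL/6 (a C57BL/6J background in the methods), with 5 libraries labelled WT and 5 labelled SOD1-G93A. According to the study's methods, the WT animals were littermates, the lumbar region was taken (the labels name no region of the cord), and SOD1-G93A animals carry many copies of a human *SOD1* transgene with a mutation of familial amyotrophic lateral sclerosis, which the WT animals lack. Each library mixes all cells of the cord. For each gene the value used here was the base mean, the authors' mean over all 10 libraries of the read counts after scaling for depth. Both genotypes are pooled in it, so the levels below describe spinal cord tissue from SOD1-G93A and WT mice together. The remaining columns of the table hold the authors' own comparison of the genotypes and were not used, and no difference between SOD1-G93A and WT mice was tested here. Values of single libraries were not analysed here, so no spread between mice can be given beside a level.

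Secretory and membrane proteins fold in the ER, where the chaperone BiP, the product of *Hspa5*, binds unfolded chains. When such chains accumulate, the sensors Ire1 (*Ern1*), Perk (*Eif2ak3*) and Atf6 are activated. Ire1 cuts a short segment out of the *Xbp1* mRNA, Atf6 is released by the proteases encoded by *Mbtps1* and *Mbtps2*, and Perk phosphorylates the translation factor eIF2 alpha. The last step is shared with kinases that respond to lack of amino acids or haem and to double-stranded RNA, and it forms the integrated stress response, in which general translation falls while the translation of Atf4 rises. Atf4 with its partners induces *Ddit3* (the transcription factor Chop), *Trib3*, *Chac1*, *Asns* and the serine synthesis enzymes *Phgdh* and *Psat1*. In mutant SOD1 mice, ER stress has been studied mainly in motor neurons, which are a small part of the tissue sequenced here.

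The *Xbp1* segment and matches to known stress elements in the promoters of *Hspa5*, *Asns*, *Chac1* and *Trib3* are shown first, since such sequences are how the arms of the response are usually recognised. The *Xbp1* segment was located in the reference mRNA (GENCODE vM21, GRCm38) by a search for a pair of Ire1-type cleavage sites 26 bases apart. Of the 2 pairs found, 1 lengthened the reading frame when the bases between were removed, from 267 to 371 codons, and the other shortened it to 73 codons. The lengthening pair lies in coding sequence at chr11:5524279-5524304 on the plus strand. In the following line the 26 bases removed are in capitals, and 20 bases on each side are in lower case.
Xbp1: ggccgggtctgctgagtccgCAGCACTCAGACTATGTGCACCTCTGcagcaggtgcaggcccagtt
The cut and uncut mRNAs differ by these bases alone, and the base mean of *Xbp1* counts both as 1 gene. The cut form was not analysed here.

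A promoter window of 300 bases, 250 before the transcription start and 50 from it onward, was found in the RefSeq table of GRCm38.p6 for all 10 genes, with 2 windows for *Psat1*. Both strands of 32851 windows of 27025 genes were searched for the C/EBP-ATF response element (TGATGNAA, where Atf4 binds with a C/EBP partner), for the ER stress response element (CCAAT, then 9 free bases, then CCACG), for its second form (ATTGG, 1 free base, CCACG), for the unfolded protein response element (TGACGTGG), for the cAMP response element (TGACGTCA) and for the plain CCAAT box. The CCAAT box is part of the ER stress response element, so these matches overlap. The C/EBP-ATF response element was found for *Asns*, *Chac1* and *Trib3*, that is for 3 of the 10 genes and for 4.51% of all genes with a window. The ER stress response element was found for *Hspa5* alone among the 10, against 0.137% of all genes. These 4 matches are shown because they are the only stress elements found in the windows of the 10 genes. Each line runs 5′ to 3′ along the gene's own strand, with the match in capitals and 10 bases on each side. In *Chac1* and *Trib3* the element lies on the opposite strand and is read as its reverse complement.
Hspa5: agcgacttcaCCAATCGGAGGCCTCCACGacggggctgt
Asns: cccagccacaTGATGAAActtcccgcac
Chac1: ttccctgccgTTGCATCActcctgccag
Trib3: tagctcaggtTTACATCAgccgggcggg
The *Hspa5* line is chr2:34772015-34772053 on the plus strand, and its match begins 65 bases before the transcription start. The *Asns* line is chr6:7693215-7693242 on the minus strand, with the match 23 bases before the start. The *Chac1* line is chr2:119351039-119351066 on the plus strand, with the match 193 bases before the start. *Trib3* differs from these by its RefSeq start. Its line, chr2:152344029-152344056 on the minus strand, has the match 14 bases after that start. The GENCODE loci used for the levels give another picture. By them the *Trib3* match, at 152344039-152344046, lies before the gene, which ends at 152344032 on the minus strand. The matches of *Asns* and *Hspa5* lie within the GENCODE spans of those genes. The second form of the ER stress response element, the unfolded protein response element and the cAMP response element matched none of the 10 windows, and they occurred in 0.044%, 0.714% and 2.03% of all genes. A CCAAT box was present for 7 of the 10 genes, against 41.1% of all genes. The windows of *Ddit3*, *Atf4*, *Xbp1*, *Psat1*, *Phgdh* and *Sesn2* held none of these stress elements, which says only that these letters are absent from 300 bases. A match is a description of sequence and is not evidence of binding. The elements searched are known ones of the response for which the 10 genes were chosen, so the matches are no independent result.

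The tissue was checked against its defining genes before the levels were read. Levels are given per kb, as the base mean divided by the length of the gene's longest mRNA, and each is placed as a percentile among the 20399 genes with a base mean above 0 and a known length. Lumbar *Hox* genes were present, from *Hoxd11* at 71.6 per kb to *Hoxc10* at 256 per kb (*Hoxa10* was at 91.8 and *Hoxd10* at 83.6 per kb). Of the forebrain genes, *Emx1* was at 0.636 per kb (base mean 0.993) and *Neurod6* at 36.7 per kb (base mean 78.9). Of the markers given here, the oligodendrocyte gene *Mbp* stood highest at 66628 per kb, and *Mag* and *Mog* of the same cells were at 9536 and 3138 per kb. The neuronal genes *Snap25*, *Rbfox3* and *Syt1* were at 27907, 1111 and 1090 per kb, and the motor neuron genes *Slc18a3*, *Chat*, *Isl1* and *Mnx1* at 485, 257, 18.1 and 16.6 per kb. Astrocyte genes lay between *Aldh1l1* at 466 and *Slc1a2* at 4765 per kb, with *Gja1* at 2333 and *Aqp4* at 3179. Microglial genes lay lower, between *Aif1* at 126 and *Cx3cr1* at 285 per kb, with *Tmem119* at 214 and *P2ry12* at 249, and the endothelial genes *Cldn5*, *Flt1* and *Pecam1* were at 501, 327 and 183 per kb. Genes of other tissues were measured too, with *Acta1* and *Ckm* of skeletal muscle at 174 and 39.2 per kb and *Alb* and *Apoa1* of liver at 23.0 and 22.1 per kb, which is above *Isl1* and *Mnx1*. The globin genes *Hbb-bs* and *Hba-a1* were listed at 0, which does not show that blood was absent. Only uniquely mapped reads were counted, and whether this lowered the globin values was not tested. In such bulk tissue a gene's level mixes all these cells, and more cells of a type cannot be told apart from more RNA per cell.

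The 10 genes spanned 175-fold per kb, from *Psat1* at 1823 to *Trib3* at 10.4. Their median was 820 per kb, against 88.4 per kb over all ranked genes. In the top decile of all genes (above 760 per kb) were 5 of them, above the upper quartile (312 per kb) were 7, and *Trib3* was the 1 gene below the overall median. Among genes with a base mean of 10 or more, *Chac1* and *Sesn2* fell below the median as well, at percentiles 43.6 and 43.0. Ranked by base mean without division by length, *Phgdh* and *Asns* left the top decile, at percentiles 87.7 and 87.6. *Ddit3* then fell from 84.5 to 59.4, and *Chac1* to 47.4, below the median. *Psat1*, *Atf4* and *Xbp1* fell too, whereas *Hspa5*, *Sesn2* and *Trib3* rose, to 97.5, 58.7 and 27.9. Together the 10 genes held 0.0923% of all normalized reads, and *Hspa5*, *Psat1* and *Atf4* made up 67.6% of that. Every one of the 10 had a base mean above 10, and 15918 of the 25232 listed genes had one of at least 10.

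**Figure D1:**
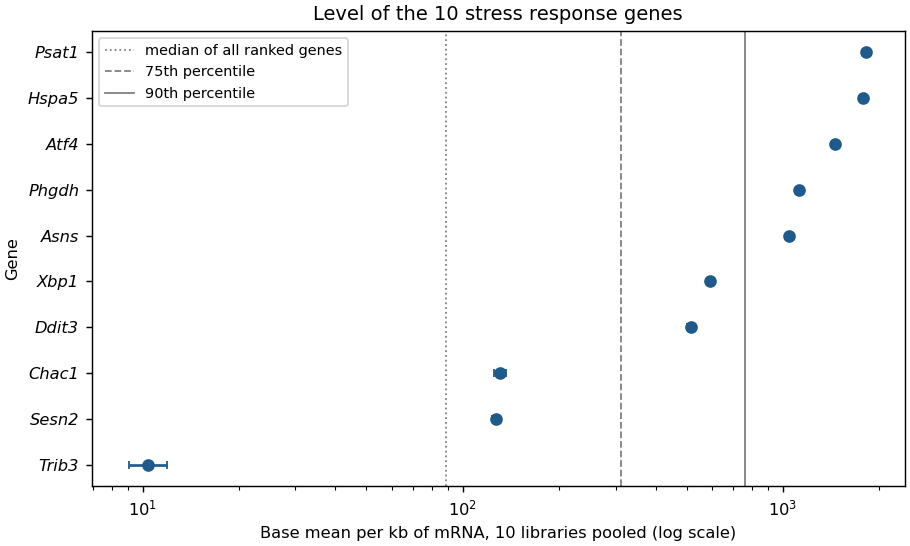
Points give the base mean per kb of mRNA (horizontal log axis) of each of the 10 genes, pooled over 10 libraries, with 95% Poisson intervals of the read count as bars, which are narrower than the point for most genes. Grey vertical lines mark the median, the upper quartile and the top decile of all 20399 ranked genes, and the 5 highest genes lie to the right of the last line while *Trib3*, at 10.4, lies to the left of the first.

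*Hspa5*, the ER chaperone gene on chromosome 2 of GRCm38 (34771970 to 34777547, plus strand), had the highest base mean of the 10, 6539 over an mRNA of 3672 bases. This gave 1781 per kb, at percentile 96.5 of all genes. As the table's mean rests on 10 libraries, it corresponds to about 65386 reads, whose exact Poisson interval at 95% runs from 64886 to 65889 and covers counting error only. Its cytosolic relative *Hspa8*, a constitutive Hsp70 chaperone, was at 16586 per kb, so that *Hspa5* reached 0.107 times its level. The mitochondrial relative *Hspa9* was at 1898 per kb, and *Hspa5* stood at 0.938 times that level. Dividing by coding length turned this order, with *Hspa5* at 1.17 times *Hspa9*, and moved the ratio to *Hspa8* to 0.162.

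Among the transcription factors, *Atf4* was the most abundant. It lies on chromosome 15 (80255184 to 80257541, plus strand), had a base mean of 2508 and reached 1454 per kb at percentile 95.5. *Xbp1*, on chromosome 11 (5520659 to 5525893, plus strand), had a base mean of 1263 and a level of 593 per kb at percentile 86.6. *Ddit3*, on chromosome 10 (127290774 to 127296288, plus strand), is the gene of Chop, which is linked to cell death under prolonged ER stress. Its base mean of 460 over the shortest mRNA of the 10 (890 bases) gave 517 per kb at percentile 84.5, or 59.4 without division by length. *Atf4* mRNA thus exceeded *Ddit3* mRNA 2.81-fold per kb (95% interval of the ratio from counting error 2.73 to 2.91, and 5.46-fold by base mean) and *Xbp1* mRNA 2.45-fold (2.40 to 2.50), or 1.52-fold per kb of coding sequence. Counts of *Ddit3* can include reads of a neighbour where strand is not used, because 68 bases of its exons (4% of them) overlap *Mars* and 13 overlap *Gm4189*, both on the opposite strand. The library kit was a stranded one according to the methods, and the strand setting of the counting is not given in the sources used here.

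The Atf family members most like *Atf4* in role were lower. *Atf5*, also translated more under eIF2 alpha phosphorylation, was at 319 per kb, and *Atf4* was 4.56-fold higher (4.43 to 4.69). *Atf3*, a factor induced by injury and stress, was at 42.9 per kb, and *Atf4* was 33.9-fold higher (31.6 to 36.3), or 15.3-fold per kb of coding sequence. *Atf3* was the lowest of the 9 listed relatives of the 10 genes, *Hspa8* was the highest, and *Sesn1* lay at their median.

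Amino acid enzymes took 3 of the 5 highest places, or 2 of 5 per kb of coding sequence, where *Xbp1* was at place 4 and *Asns* at place 6. *Psat1*, the aminotransferase of serine synthesis, lies on chromosome 19 (15904678 to 15947337, minus strand), had a base mean of 4770 and was at 1823 per kb, percentile 96.6. *Phgdh*, the dehydrogenase that opens the same pathway, lies on chromosome 3 (98313170 to 98339990, minus strand), had a base mean of 2123 and was at 1122 per kb, percentile 93.8. *Asns*, asparagine synthetase, lies on chromosome 6 (7675169 to 7693254, minus strand), had a base mean of 2108 and was at 1046 per kb, percentile 93.2. *Psph*, the phosphatase that completes serine synthesis, was far lower at 168 per kb, percentile 61.7. *Psat1* was 1.63-fold above *Phgdh* (1.60 to 1.65) and 10.8-fold above *Psph* (10.4 to 11.3, and 16.4-fold by base mean), and *Phgdh* was 6.68-fold above *Psph* (6.42 to 6.94). Coding length moved the first of these to 3.24-fold and the last to 3.08-fold, with the same order of the enzymes.

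The value of *Phgdh* carries a limit that none of the other 9 genes shares. Over 89.5% of its longest mRNA, stretches of at least 100 bases were at least 95% identical to transcripts of 11 other genes, among them 7 processed pseudogenes that each cover 84.2% to 84.6% of it. Of those 7 names, 0 matched a gene of the authors' deposited table. Only uniquely mapped reads were counted, so reads that match *Phgdh* and a pseudogene equally well are missing from its base mean. How many reads this concerns was not tested. By the same criteria, 0 other genes were found for each of the other 9.

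*Chac1*, *Sesn2* and *Trib3* were the lowest of the 10 genes. *Chac1* encodes an enzyme that degrades glutathione and lies on chromosome 2 (119351229 to 119354381, plus strand). With a base mean of 214 it was at 131 per kb, percentile 56.8, or 1.16-fold above its paralog *Chac2* (113 per kb, interval of the ratio 1.08 to 1.24). *Sesn2*, on chromosome 4 (132492032 to 132510501, minus strand), encodes a sestrin that restrains mTORC1 signalling when leucine is short. It had a base mean of 440 over an mRNA of 3475 bases, hence 127 per kb at percentile 56.3. *Chac1* and *Sesn2* were the 1 pair of neighbours in the order whose counting intervals overlapped, with a ratio of 1.03 (0.978 to 1.09), and without division by length *Sesn2* stood above *Chac1*. *Sesn1*, a sestrin known as a target of p53, was 1.96-fold above *Sesn2*, and *Sesn3*, a target of FoxO factors, was at 0.834 times its level. The order of *Sesn3* and *Sesn2* depended on length, since *Sesn3* was 2.14-fold above *Sesn2* per kb of coding sequence.

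*Trib3*, a pseudokinase gene induced by Atf4 and Chop, was the least abundant of the 10. It lies on chromosome 2 (152337422 to 152344032, minus strand), and its base mean of 21.1 came from about 211 reads over all libraries (exact Poisson interval 183 to 241). This amounts to 10.4 per kb (9.04 to 11.9) at percentile 27.1, 12.2-fold below *Sesn2*, the next gene up (20.9-fold by base mean). Its paralogs were higher, *Trib2* by 25.1-fold (21.9 to 28.9) at 261 per kb and *Trib1* by 5.06-fold (4.38 to 5.84) at 52.6 per kb. Per kb of coding sequence these were 53.7-fold and 10.3-fold. *Ddit3*, which acts upstream of *Trib3*, was 49.7-fold higher (43.2 to 57.2), or 21.8-fold by base mean without division by length. Counting error alone was 6.88% of the value for *Trib3*, against 0.391% for *Hspa5*.

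**Figure D2:**
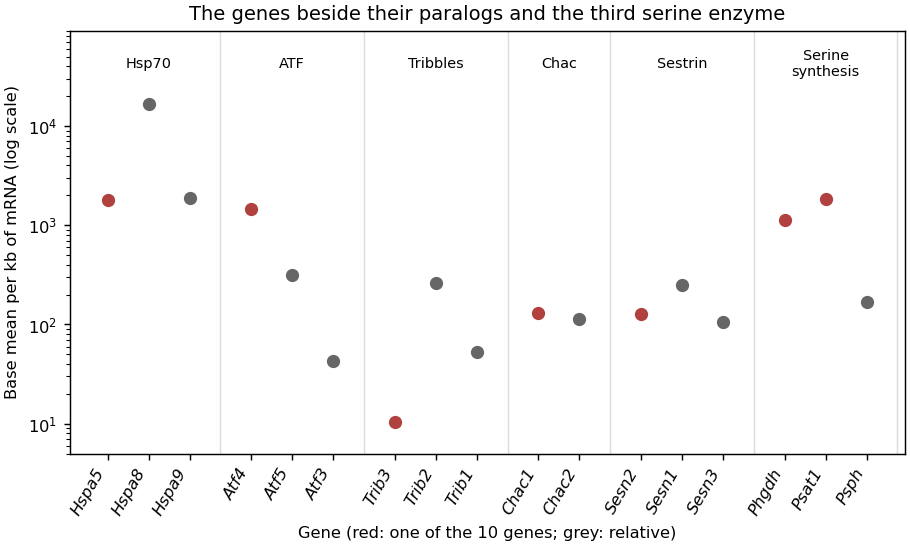
The base mean per kb of mRNA (vertical log axis, 10 libraries pooled) is drawn for each of the 10 genes that has a listed relative (red) beside its paralogs or, for serine synthesis, beside *Psph* (grey). *Atf4* is the highest of its group at 1454, whereas *Trib3* at 10.4 is the lowest of its group and *Hspa8* at 16586 lies far above *Hspa5*.

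The wider pathway was described with 9 further lists and the list of relatives, beside the overall median of 88.4 per kb. Of these 10 lists, 9 had a median above it. That overall median includes genes with a base mean below 10. Among genes with a base mean of 10 or more, *Chac1* at 131 per kb was below the median, at percentile 43.6. The median of those genes is thus above 131 per kb, and the lists were not set against it. Whether the lowest of the 9 list medians, 141 per kb, exceeds it was not tested. The sensors and kinases that start the response had a median of 174 per kb over 10 genes. *Mbtps1*, the protease that releases Atf6, was the highest of them at 532 per kb, *Eif2ak4* (Gcn2, which senses uncharged tRNA) was nearest the median at 148 per kb, and *Ern2*, an Ire1 gene of mucosal epithelium, was the lowest at 8.82 per kb. The translation factors and the phosphatase that act next had a median of 357 per kb over 11 genes, from *Eif2b3* at 90.9 to *Ppp1ca*, a catalytic subunit of protein phosphatase 1, at 1716. All 11 were above the overall median, and *Eif2b4* lay at the median of the list.

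ER chaperones and foldases had a median of 450 per kb, and all 17 lay above the overall median. *Calr*, the lectin chaperone calreticulin, was the highest at 3758 per kb, *Dnajb11*, a cofactor of BiP, was at the median, and *Ero1lb*, an oxidase for disulfide formation, was the lowest at 113 per kb. *Hspa5*, at 1781 per kb, lay above the median of this list and reached 0.521 times the level of *Hsp90b1*, the ER form of Hsp90 (0.830 times per kb of coding sequence). Genes of ER-associated degradation, which removes proteins that fail to fold, had a median of 346 per kb over the 11 found, with *Os9* at 1248, *Syvn1* at the median and *Derl3* at 25.2. The bZIP factors had a median of 141 per kb over 8 genes, between *Creb3* at 464 and *Creb3l1* at 18.6, with *Creb3l2* at 69.9 nearest the median. Per kb, *Atf4*, *Xbp1* and *Ddit3* were each above all 8 of them. By base mean *Atf4* and *Xbp1* still were. *Ddit3*, at 460, was then below several, such as *Creb3* (874), *Atf5* (579) and *Creb3l2* (495), and above others such as *Creb3l1* (48.5).

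On the amino acid side, the other synthesis and one-carbon enzymes had a median of 168 per kb over 11 genes, which is the value of *Psph*. They ran from *Shmt1*, the cytosolic serine hydroxymethyltransferase, at 22.0 to *Got1*, the cytosolic aspartate aminotransferase, at 4224. Transporters of amino acids had a median of 571 per kb over 7 genes, given by *Slc7a5*, with the glycine transporter *Slc6a9* at 2280 and the glutamine transporter *Slc1a5* at 37.9. The aminoacyl-tRNA synthetases, which charge tRNAs and are Atf4 targets, had the highest median of any list, 1001 per kb over 11 genes, from *Tars* at 205 to *Nars* at 2769 with *Yars* at the median. The stress effectors had the lowest median of any list, 26.3 per kb over 9 genes. *Ddit4*, an inhibitor of mTORC1, was at 645 per kb, *Pmaip1*, a death gene of the Bcl2 family, was at the median, and *Gdf15*, a stress hormone gene, was at 2.13 per kb with a base mean of 3.29, the 1 gene of that list under 10. *Trib3*, at 10.4 per kb, lay below the median of this list as well.

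**Figure D3:**
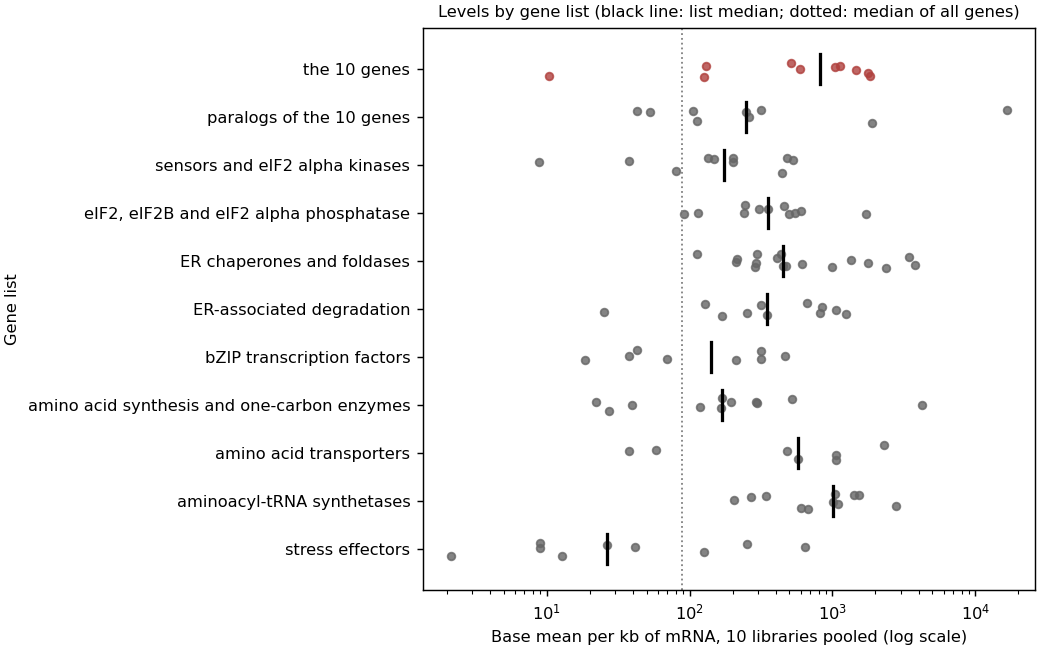
Each point is a gene placed by its base mean per kb of mRNA (horizontal log axis, 10 libraries pooled), with the 10 genes in red and the other lists in grey. Black bars are list medians, and all but the stress effectors, at 26.3, lie to the right of the dotted line, the median of all genes at 88.4.

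The promoter motifs were counted in the same lists, and the genes named for them were picked because they held the motif. The C/EBP-ATF response element was in 5 of the 7 synthetases with a promoter window (*Aars*, *Gars*, *Iars*, *Tars* and *Yars*), in 3 of 7 stress effectors (*Nupr1*, *Fgf21* and *Vldlr*) and in 2 of 5 transporters (*Slc7a11* and *Slc1a4*). It was also in 2 of 9 amino acid synthesis and one-carbon enzymes (*Pycr1* and *Got1*) and in 1 of 9 degradation genes (*Herpud1*). The list of translation factors and phosphatase held it in 1 of 8 genes (*Eif2s3x*). *Atf3* was the 1 of 7 bZIP factors, and the 1 of 6 relatives, with the element. It was in 0 of 12 ER chaperones and foldases and in 0 of 8 sensors and kinases, against 4.51% of all genes. With only the bases before the start searched, the synthetases held it in 3 of 7 genes, as many as the stress effectors, and the transporters in 1 of 5. The ER stress response element was in 6 of 12 chaperones and foldases (*Hsp90b1*, *Calr*, *Canx*, *Pdia6*, *Dnajc3* and *Creld2*), in 2 of 9 degradation genes (*Syvn1* and *Derl3*) and in 0 of the synthetases, transporters, effectors and sensors, against 0.137% of all genes. In *Hsp90b1* it was present at 2 places. *Hspa5* thus shared this element with 6 of the chaperones and with the 2 degradation genes. The second form of the element, absent from *Hspa5*, was in 1 of 12 chaperones and foldases (*Dnajb11*) and in 1 of 9 degradation genes (*Herpud1*). It was in 0.044% of all genes, and the match of *Dnajb11* lies after its RefSeq start. *Asns*, *Chac1* and *Trib3* shared the C/EBP-ATF response element with 5 of the synthetases and with the genes named for it above from other lists. Differences between lists were not tested. These motifs are known elements of the same pathways from which the lists were drawn. Their presence in such genes is therefore a description and not an independent result. *Asns* at 1046 per kb and *Trib3* at 10.4 per kb both held the C/EBP-ATF response element, that of *Trib3* after its RefSeq start. A relation between promoter element and level was not tested.

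**Figure D4:**
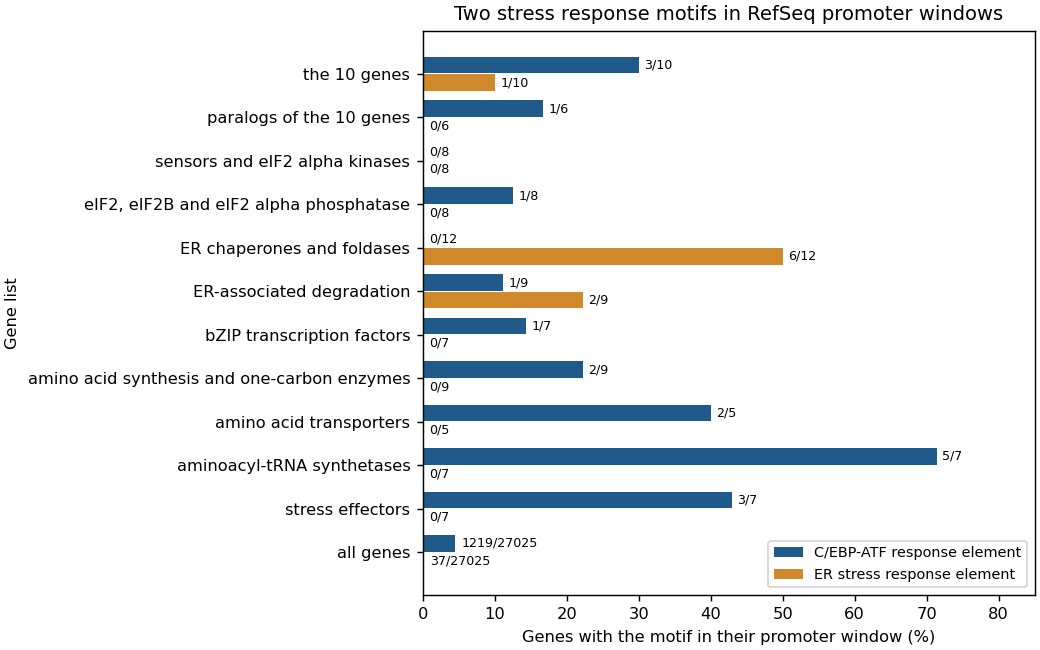
Bars give the percentage of genes of each list (horizontal axis, from 0) whose RefSeq promoter window holds the C/EBP-ATF response element (blue) or the ER stress response element (orange), with the counts written beside each bar. The blue bar is longest for the aminoacyl-tRNA synthetases, at 5 of 7 genes (3 of 7 before the start, equal to the stress effectors), and the orange bar for the ER chaperones and foldases, at 6 of 12.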

How the data were processed

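According to the study's methods, the authors trimmed and filtered reads with Fastp, mapped them to mm10 with HISAT2 (2.1.0 in the submitters' processing notes) and counted uniquely mapped reads per gene with featureCounts (2.0.2). Annotation and strand setting are not given in the sources used here. The deposited base mean is a signal that the authors made with DESeq2 as the mean, over 5 WT and 5 SOD1-G93A libraries, of counts divided by size factors. The other columns hold the authors' fold changes, standard errors, test statistics and p-values and were not used. No test between genotypes, spread between mice or fit without a library could therefore be made.

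Size factors were read from genes with 1 read in 1 library, whose base mean is shared within 5e-07 by at least 20 genes, a rule set after the table had been seen. They gave 18614755 to 25516682 reads on genes per library. Lengths came from GENCODE vM21 (GRCm38, the build of mm10), which matched 24355 of 25232 symbols. Read numbers are base means times 10 libraries. Poisson intervals cover counting error only. Motifs were searched in RefSeq windows of GRCm38.p6, and similar transcripts with blastn 2.17.0. The size factor search was tested on simulated data. The motif search was tested on a made-up sequence with planted C/EBP-ATF and cAMP response elements, and the other motifs were not tested in this way. Software was matplotlib 3.10.9, scipy 1.17.1, pandas 2.3.3, numpy 2.4.6 and Python 3.11.15. Members and lists were chosen with earlier results of these data known. Besides the 10 genes, those named are each list's highest, lowest and median gene, all paralogs and the markers, some of which are not reported here. *Hsp90b1* and the genes named for a motif were chosen after their values were seen. Alternatives were other lengths, reference sets, symbol matching, list summaries, motif windows and shorter motifs.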

Additional observations from a re-analysis of the deposited data

How the results depend on the processing

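The fold of the highest over the lowest of the 10 genes, 175 per kb of mRNA, was 310 without division by length and 217 per kb of coding length. Per kb of the union of exons, an alternative chosen after seeing the data, it was 156. *Trib3* was the lowest gene under all 4. The place in the order changed for 4 genes without division by length (*Psat1*, *Hspa5*, *Chac1* and *Sesn2*). It changed for *Xbp1*, *Phgdh* and *Asns* per kb of coding length and for *Psat1* and *Hspa5* per kb of exons. *Psat1* led *Hspa5* by only 1.02-fold per kb of mRNA. Without division by length and per kb of exons, *Hspa5* was the highest gene instead. The median percentile of the 10 genes, 89.9, was 86.8 among genes whose base mean reached 10 and 91.6 among all listed genes, and that of *Trib3* ranged from 6.83 to 38.9. The number of lists with a median above that of all genes, 9, was also 9 with synonyms and with the mean of log2 levels. Synonyms matched *Vimp* to *Selenos* and *Mars* to *Mars1*, but *Mars1* had no level per kb. They moved only the median of the degradation list, from 346 to 438 per kb, so this alternative could not change the count. The lists were not set against genes with a base mean of 10 or more. The number of the 10 genes with the C/EBP-ATF response element, 3, was 2 when only the bases before the RefSeq start were searched, since the site of *Trib3* lies after that start. It was 3 with the last base of the motif dropped. The shorter motif was in 13.8% of all genes. No replicate could be left out and no paired analysis was possible because the table holds no values of single libraries. Depth limits *Trib3* most, with about 211 reads in all.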

Other observations

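The size factors of the 10 libraries were read from genes with 1 read in all, because below the base mean that 2 reads give these genes take 10 repeated values. In order of size they were 0.8401, 0.8994, 0.9502, 0.9513, 0.9578, 1.073, 1.0735, 1.0802, 1.0899 and 1.1515, each shared by 50 to 103 genes. The largest size factor was 1.37 times the smallest. The widest gap lay between the fifth and the sixth value. The values carry no library names, so whether depth differed between WT and SOD1-G93A libraries cannot be told.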
